A study of Homo sapiens with 12 samples.

Results

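Progesterone (P4) was compared with its vehicle in U87 cells on 6 of the 12 arrays of a steroid treatment series. U87 is an established human glioblastoma cell line. The members are the 3 arrays titled P4 and the 3 titled V at 72 h, chosen by their titles alone, and every transcript cluster with a gene symbol in the platform annotation was tested, which were 21214 of 33297. In the P4 group the cells received 10 nM progesterone for 72 h. In the V group they received dimethyl sulfoxide alone, which 1 label gives as 0.1% and another as 10%. The study's methods give 0.1%. All cells had been moved 24 h earlier to medium without phenol red and with charcoal-stripped serum, which carries little steroid. The remaining 6 arrays hold cells given the progesterone metabolite allopregnanolone (3α-THP, 10 nM) or the 5α-reductase inhibitor finasteride (F, 100 nM). Each treatment has arrays numbered 1 to 3, described as separate experiments, of 1 cell line, so p-values measure the spread between cultures of this line.

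Progesterone acts through a nuclear receptor, encoded by PGR, that binds DNA as a dimer and changes transcription with coactivators. It also acts through membrane receptors of the PAQR family and binds heme proteins of the PGRMC family. In glial cells 5α-reductase and the AKR1C enzymes convert progesterone to 5α-dihydroprogesterone and then to 3α-THP, which modulates GABA-A receptors. Progesterone is known for driving proliferation of several hormone-responsive tissues, and its effect on glioblastoma cells has been studied in culture. The comparison asks which transcripts differ after 72 h of the hormone.

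Few transcripts passed the threshold between P4 and V. Values are the deposited log2 signals, and a difference of 1 on this scale is a 2-fold change. With the threshold of the study, a change over 1.5-fold (0.58 on the log2 scale) with an unadjusted p under 0.05, 5 of 21214 clusters passed (0.0236%). Of these, 3 were higher with P4 (0.0141%) and 2 were lower (0.00943%). After Benjamini-Hochberg adjustment over all clusters none passed an adjusted p under 0.05 (limma, adjusted p = 1.00 for every cluster), while 386 clusters (1.82%) had an unadjusted p under 0.05, 194 of them higher and 192 lower. With the replicate number as a block 6 clusters passed the threshold (0.0283%), 807 (3.8%) had an unadjusted p under 0.05, and none passed the adjusted p (smallest 0.359). The arrays of the 2 groups did not overlap for 1154 clusters (5.44%), of which 417 were higher with P4 and 737 were lower.

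The size of most differences was bounded. The 95% confidence interval lay inside a 1.5-fold change in either direction for 20174 clusters (95.1%) and inside a 2-fold change for 21106 (99.5%). The median log2 fold change was −0.01, and single values ran from −0.97 to 0.87. Only 7 clusters exceeded 1.5-fold at any p. The 2 of these that missed the p threshold were ADAM20P1 and SNORA2A, a small nucleolar RNA. SNORA2A gave 7.80, 6.91 and 6.38 on the P4 arrays and 8.13, 7.69 and 8.19 on the V arrays, so that the groups overlapped and its fold change of −0.97 carried an SE of 0.583 (95% interval −2.23 to 0.29). All 5 clusters that passed had a mean signal below the median of the clusters, where the differences between groups spread most. Their log2 fold changes had an SD of 0.126 among the 5303 clusters of lowest signal and 0.0744 among the 5304 of highest signal. A probe set's signal depends on its probes, so a rank of signal does not rank transcripts by abundance.

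**Figure D1:**
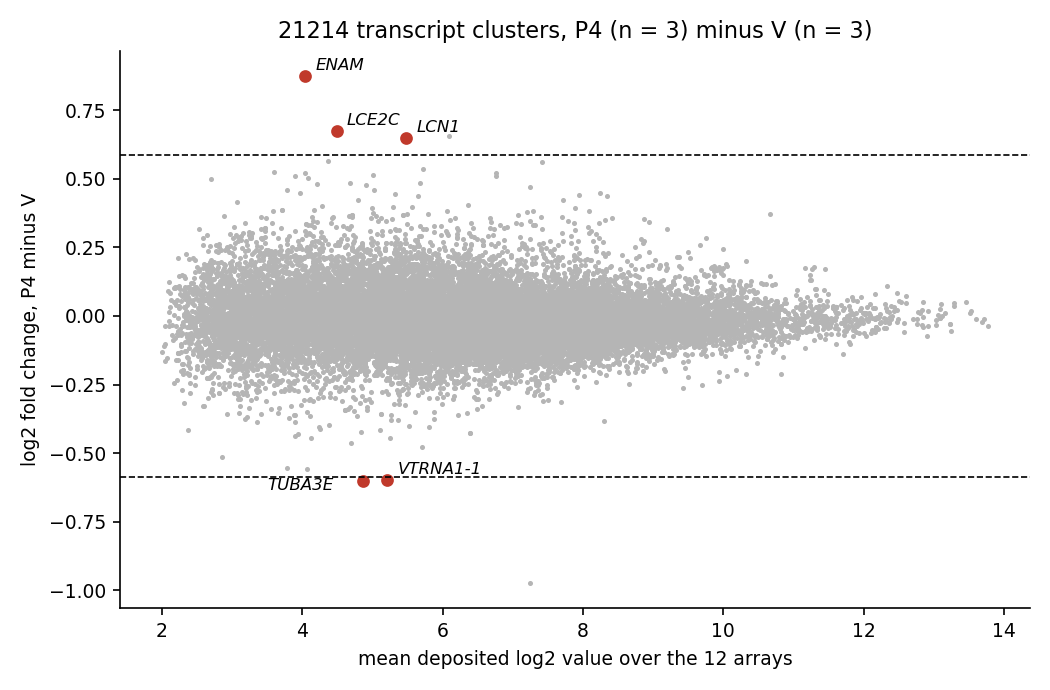
Each point is 1 of 21214 transcript clusters, with its mean log2 signal over the 12 arrays on the x axis and its log2 fold change (P4 minus V, n = 3 each) on the y axis. Dashed lines mark 1.5-fold. The 5 clusters past 1.5-fold and p under 0.05 are red, and all lie at signals below 6.

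The differences seen in 1 culture were seldom seen in the next. Within a pair of arrays of the same number, 45 clusters were over 1.5-fold higher with P4 in pair 1, 89 in pair 2 and 239 in pair 3, and 107, 60 and 50 were over 1.5-fold lower. None was over 1.5-fold in the same direction in all 3 pairs. At any size, all 3 pairs were higher with P4 for 1654 clusters (7.8%) and lower for 2734 (12.9%). In at least 2 pairs, 9 were over 1.5-fold higher and 6 over 1.5-fold lower. Over all 21214 clusters the P4 minus V differences of pairs 1 and 2 correlated at r = −0.23, of pairs 1 and 3 at −0.01 and of pairs 2 and 3 at 0.02. These correlations run across genes, which are not independent replicates, and the pairs share no array. The same 3 correlations were 0.19, 0.31 and 0.29 for 3α-THP minus V and 0.05, 0.38 and 0.05 for F minus V, which are set against the same V arrays.

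ENAM, which encodes enamelin, a matrix protein of forming tooth enamel, had the largest increase and the smallest p. ENAM gave 4.32, 4.51 and 4.52 on the P4 arrays and 3.34, 3.33 and 4.06 on the V arrays. Every P4 array lay above every V array, and the third V array was the nearest to them. Its log2 fold change was 0.87 (SE 0.160, 95% interval 0.53 to 1.22, limma), a 1.83-fold increase. It was the only one of the 5 that passed the threshold under every alternative setting in which it was tested. Its values there ran from 0.61 to 1.12. Without V replicate 3, the V array nearest to P4, the difference was 1.12 and the adjusted p 0.00293 (limma). With all arrays ENAM did not pass the adjusted p. Its mean signal stood at the 14th percentile of the clusters. Against the same V arrays ENAM differed by 0.54 with 3α-THP and by 0.47 with F. RefSeq places ENAM on chromosome 4, from 70628744 to 70646824 of build GRCh38.p14.

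LCN1 encodes tear lipocalin, a secreted carrier of lipids, and 2 transcript clusters of the array measure it. The cluster that passed the threshold gave 5.90, 5.60 and 6.05 on the P4 arrays and 5.39, 5.12 and 5.10 on the V arrays, with no overlap. Its log2 fold change was 0.65 (SE 0.246, 95% interval 0.12 to 1.18). The other cluster gave 6.88, 6.83 and 6.78 on the P4 arrays and 6.41, 6.55 and 6.56 on the V arrays, again with no overlap and a fold change of 0.32 (SE 0.101, 95% interval 0.10 to 0.54). Both clusters thus ran the same way, and the second stayed below 1.5-fold. The call of the first was lost without P4 replicate 1 (0.62), P4 replicate 3 (0.55), V replicate 2 (0.61) or V replicate 3 (0.59), each time with an interval that took in 0. Against the same V arrays the first cluster differed by 0.24 with 3α-THP and by 0.23 with F, and the second by 0.20 and 0.16. LCN1 lies on chromosome 9, from 135521440 to 135526540.

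LCE2C encodes a late cornified envelope protein of the outer epidermis. It gave 4.73, 5.09 and 4.51 on the P4 arrays and 4.50, 3.43 and 4.39 on the V arrays. The groups did not overlap, but the lowest P4 array and the highest V array nearly met and the second V array stood far below the others. The log2 fold change was 0.67 (SE 0.256, 95% interval 0.12 to 1.23). Without V replicate 2 it was 0.33 and without P4 replicate 2 it was 0.52, and the call was lost in both cases. LCE2C differed by 0.60 with 3α-THP and by 0.27 with F against the same V arrays. The gene lies on chromosome 1, from 152675279 to 152676569.

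TUBA3E, an alpha tubulin gene, had the largest decrease among the clusters that passed. TUBA3E gave 4.64, 4.61 and 4.25 on the P4 arrays and 5.09, 5.00 and 5.23 on the V arrays, and all P4 arrays lay below all V arrays. Its log2 fold change was −0.60 (SE 0.123, 95% interval −0.87 to −0.33, limma). It fell below 1.5-fold without P4 replicate 3 (−0.48) or V replicate 3 (−0.54). A cluster annotated to TUBA3C, TUBA3D and TUBA3E together gave 6.17, 6.45 and 6.38 with P4 and 6.24, 6.20 and 6.33 with V, a fold change of 0.08 (95% interval −0.12 to 0.27). The near-identical sequences of these genes make a signal assigned to 1 of them uncertain. TUBA3E differed by −0.12 with 3α-THP and by −0.24 with F against the same V arrays. The gene lies on the minus strand of chromosome 2, from 130191745 to 130198439.

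VTRNA1-1 encodes a vault RNA, a short noncoding RNA of the vault ribonucleoprotein particle. It gave 4.77, 5.35 and 5.12 on the P4 arrays and 5.36, 6.38 and 5.29 on the V arrays. The second P4 array lay above the third V array, so the groups overlapped, and the second V array was the highest. The log2 fold change was −0.60 (SE 0.266, 95% interval −1.17 to −0.02). The call was lost without V replicate 2 (−0.25), P4 replicate 1 (−0.44) or P4 replicate 3 (−0.62). It was also lost without 1 array of either other steroid, 3α-THP replicate 1 or F replicate 3, which enter only through the estimate of the spread. VTRNA1-1 differed by −0.55 with 3α-THP and by −0.72 with F against the same V arrays. It spans chromosome 5 from 140711276 to 140711373.

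With the replicate number as a block, ADAM20P1, a transcribed pseudogene of the ADAM metalloprotease family, was the sixth to pass. It gave 6.47, 5.80 and 6.42 on the P4 arrays and 6.04, 4.74 and 5.95 on the V arrays. Both number 2 arrays were the lowest of their groups, and P4 was above V by 0.43, 1.06 and 0.47 in the 3 pairs. Its log2 fold change of 0.66 had an SE of 0.341 without the block (95% interval −0.08 to 1.39) and 0.131 with it (95% interval 0.37 to 0.94). Against the same V arrays ADAM20P1 differed by 0.69 with 3α-THP and by 0.74 with F, so its difference was not particular to P4.

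**Figure D2:**
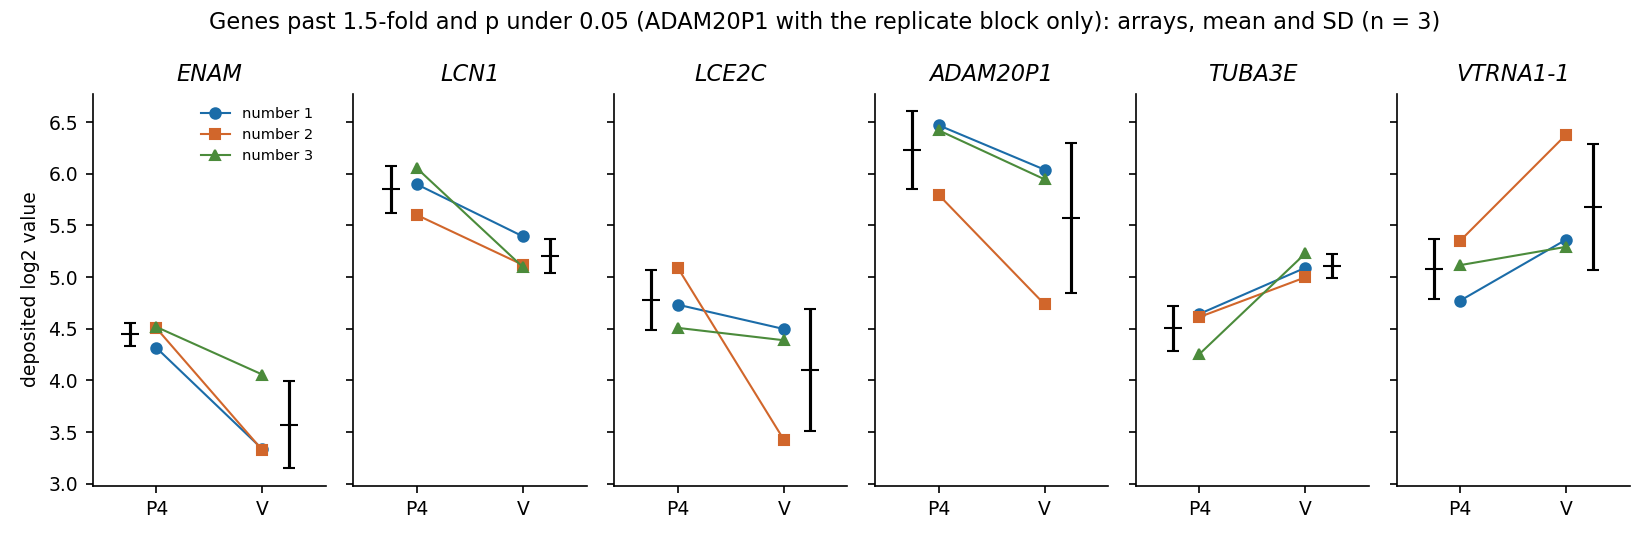
Deposited log2 signal of the 5 genes past 1.5-fold and p under 0.05, and of ADAM20P1, which passed with the replicate block only. P4 arrays are on the left and V arrays on the right of each panel, lines join arrays of the same number, and bars beside the points give the mean and SD (n = 3 each). The V array of number 2 stands apart for LCE2C (3.43), ADAM20P1 (4.74) and VTRNA1-1 (6.38).

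Below 1.5-fold, other genes with small p are listed by the strength of the test. Arrays that do not overlap are thus no further support for them. Among genes with a higher signal, RALGAPA1, which encodes the catalytic subunit of a Ral GTPase-activating complex, gave 6.94, 6.86 and 6.92 with P4 and 6.46, 6.55 and 6.17 with V. No arrays overlapped, and the fold change was 0.51 (SE 0.109, 95% interval 0.27 to 0.75), against 0.64 with 3α-THP and 0.35 with F. The other clusters of RALGAPA1 held identical values to each other and differed by 0.10 (95% interval −0.10 to 0.30), so the clusters of this gene did not give the same size. LAMP5, a brain-expressed member of the lysosome-associated membrane proteins, gave 4.11, 4.41 and 4.41 with P4 and 3.92, 3.81 and 3.63 with V, without overlap. Its fold change was 0.52 (SE 0.123, 95% interval 0.26 to 0.79). ERVW-1 encodes syncytin-1, the placental cell-fusion protein derived from a retroviral envelope gene. It gave 5.12, 4.89 and 5.00 with P4 and 4.68, 4.26 and 4.63 with V, a difference of 0.48 (95% interval 0.21 to 0.75, and 0.32 to 0.64 with the block, where its p was the smallest of all clusters). The differences of ERVW-1 were 0.08 with 3α-THP and 0.10 with F. The noncoding RNA LIPT2-AS1 completed the 5 smallest p-values in this direction with 0.37 (95% interval 0.18 to 0.57).

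Among genes with a lower signal, the smallest p-values after TUBA3E belonged to ZNF304, a zinc finger transcription factor gene, with −0.34 (SE 0.0855), TMEM92 with −0.29 (SE 0.0750), C10orf71 with −0.31 (SE 0.0821) and the small nucleolar RNA SNORA21 with −0.28 (SE 0.0772). In all 4 the P4 and V arrays did not overlap, as for 5.44% of all clusters, and none reached 1.5-fold. The 4 were picked for small p, so this separation is no further support. SNORA21 gave 7.38, 7.34 and 7.36 with P4 and 7.60, 7.65 and 7.68 with V, and its difference was −0.31 with each of 3α-THP and F. On fold change, the genes just outside the limit were FAM228A (1.48-fold), PNMA6A (1.45-fold) and RPSA2 (1.44-fold), and the nearest inside it were TUBA3E (0.659-fold) and VTRNA1-1 (0.660-fold).

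Promoter sequence is shown for ENAM and TUBA3E, the genes with the smallest p in each direction, and for LAMP5. Windows were read only for genes past the threshold in either fit and the 5 smallest p-values in each direction. Among those with a window, LAMP5 alone held the searched letters. The progesterone receptor shares its response element with the glucocorticoid receptor, a palindrome written here as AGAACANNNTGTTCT. The core TGTTCT and its complement AGAACA were searched on both strands in the 250 bases before each RefSeq start, and the palindrome contains both. The core is in capitals.
ENAM promoter, GRCh38.p14 plus strand, chr4:70628494-70628743: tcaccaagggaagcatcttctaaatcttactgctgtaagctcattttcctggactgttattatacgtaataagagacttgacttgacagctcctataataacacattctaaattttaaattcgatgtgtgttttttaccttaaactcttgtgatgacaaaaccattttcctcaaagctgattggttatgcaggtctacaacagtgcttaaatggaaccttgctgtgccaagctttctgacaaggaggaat
TUBA3E promoter, GRCh38.p14 minus strand, chr2:130198440-130198689: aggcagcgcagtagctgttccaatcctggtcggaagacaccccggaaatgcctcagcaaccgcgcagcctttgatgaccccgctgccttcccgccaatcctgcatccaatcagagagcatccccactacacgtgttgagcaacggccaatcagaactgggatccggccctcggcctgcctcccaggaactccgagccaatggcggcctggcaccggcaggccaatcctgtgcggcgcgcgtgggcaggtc
LAMP5 promoter, GRCh38.p14 plus strand, chr20:9514340-9514589: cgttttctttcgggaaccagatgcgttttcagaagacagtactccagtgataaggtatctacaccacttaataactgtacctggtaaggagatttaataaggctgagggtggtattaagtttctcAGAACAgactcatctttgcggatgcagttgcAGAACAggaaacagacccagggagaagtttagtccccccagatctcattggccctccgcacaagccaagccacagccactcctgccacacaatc
The LAMP5 window held 2 cores and no palindrome. The windows of ENAM (both RefSeq starts), TUBA3E, LCN1 and LCE2C held 0 cores. Of 35116 promoter windows of the same length, 12.4% held at least 1 core, 1.31% held 2 or more and 1 held the palindrome. A match is a match of letters only, and its absence concerns this window only.

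No receptor gene of the hormone passed. Of 9 receptor and membrane progesterone-binding protein genes measured, of 10 listed, 0 passed the threshold, and for all 9 the 95% interval lay inside a 1.5-fold change. Over all clusters 0.0236% passed and 95.1% had such an interval. PGR, the nuclear receptor gene, gave 3.998, 4.024 and 3.978 on the P4 arrays and 3.882, 3.9997 and 3.998 on the V arrays. The groups overlapped, and the fold change was 0.04 (95% interval −0.17 to 0.25), at the 13.3 percentile of signal. Of the membrane receptors, PAQR8 differed by 0.09, PAQR7 by 0.01, PAQR6 by −0.05, PAQR9 by −0.09 and PAQR5 by −0.13. PGRMC2, a membrane-associated heme-binding protein, gave 9.29, 9.07 and 9.11 with P4 and 9.28, 9.26 and 9.19 with V, a difference of −0.09 (95% interval −0.26 to 0.08). The related NENF and CYB5D2 differed by −0.09 and −0.01. The median over the 9 was −0.05, beside −0.01 over all clusters.

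Genes that progestins and glucocorticoids are known to induce in other cells showed only small differences. Of 36 measured, of 38 listed, 0 passed the threshold, against 0.0236% of all clusters, and none had p under 0.05. Their median log2 fold change was −0.01 and the range −0.20 to 0.16, and for 33 of 36 the interval lay inside 1.5-fold. It did so for 95.1% of all clusters. PER1, a circadian repressor with a hormone response element, gave 6.36, 6.16 and 6.33 with P4 and 6.47, 6.01 and 6.397 with V, a difference of −0.01 (95% interval −0.30 to 0.28). ZBTB16, a transcriptional repressor induced in decidualizing endometrium, gave 5.98, 5.78 and 5.99 with P4 and 5.88, 5.86 and 6.04 with V, also −0.01 (−0.23 to 0.22). In both genes the arrays of the 2 groups were interleaved. TSC22D3, the glucocorticoid-induced leucine zipper, differed by −0.07 with a wide interval (−0.62 to 0.49), and KLF9, a progesterone receptor partner in endometrium, by −0.09 (−0.29 to 0.12). The kinase SGK1 gave 5.56, 5.81 and 5.53 with P4 and 5.61, 6.03 and 5.81 with V, and the phosphatase DUSP1 gave 9.15, 8.88 and 9.53 with P4 and 9.26, 9.03 and 9.60 with V. P4 was the lower array in all 3 pairs of both, by a mean of 0.18 and 0.11, and the groups overlapped. Of all clusters, 12.9% were lower with P4 in all 3 pairs. FKBP5, the immunophilin often used as a readout of these receptors, shares its transcript cluster with other genes in the annotation and is given no value.

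**Figure D3:**
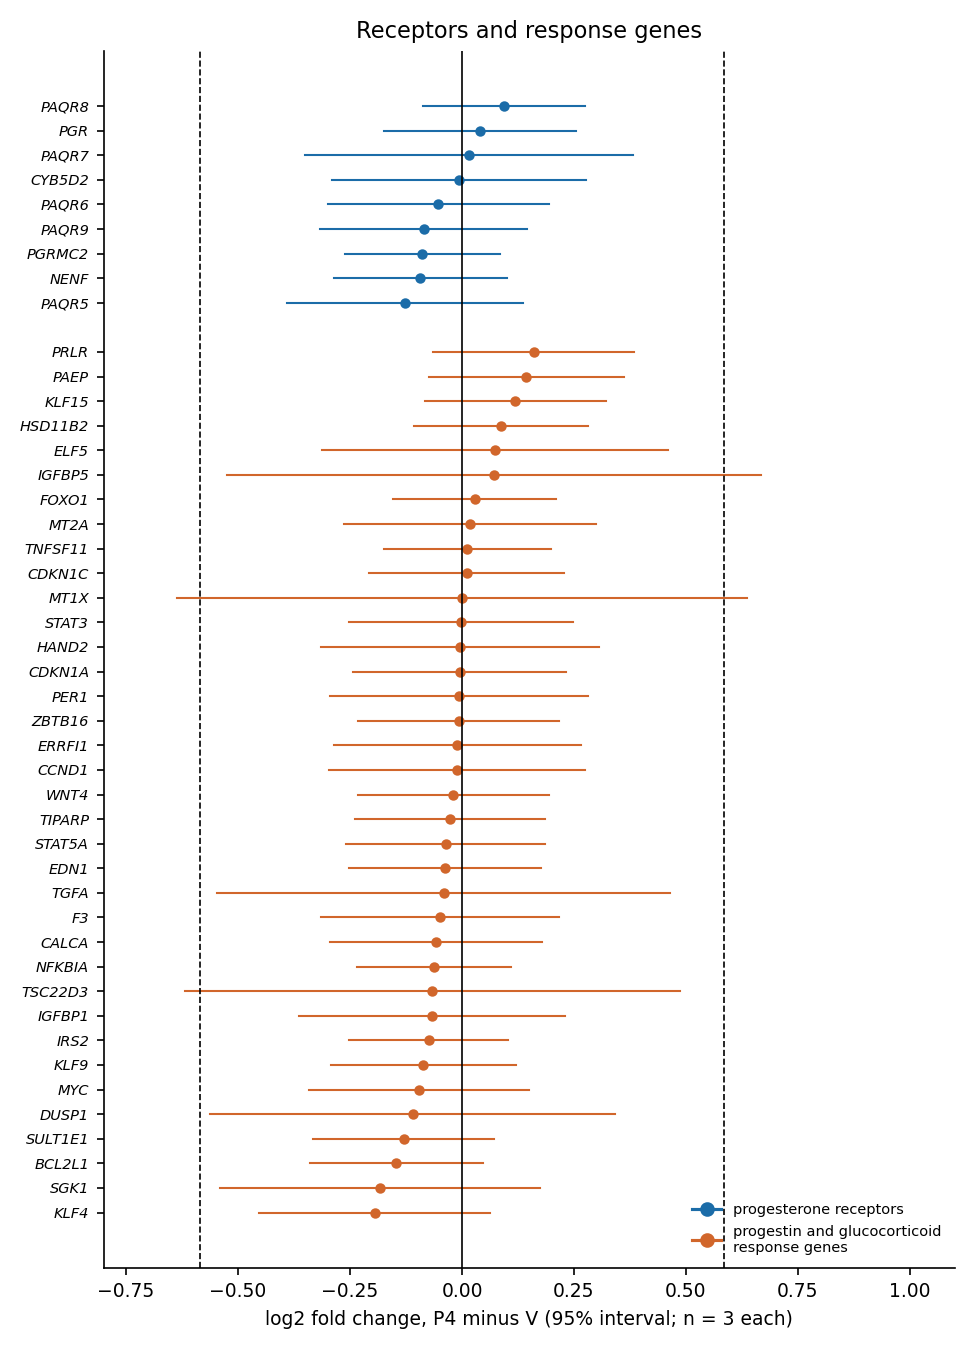
Log2 fold change (P4 minus V) with its 95% interval from the fit over all 12 arrays (n = 3 each). Blue marks 9 receptor and membrane progesterone-binding protein genes, and orange marks 36 progestin and glucocorticoid response genes. Dashed lines mark 1.5-fold. The intervals of 42 of the 45 genes lie between them, as for 95.1% of all clusters, and those of TSC22D3, MT1X and IGFBP5 cross 1 or both.

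Of the other steroid receptors, 0 of 7 measured passed (median −0.02), and of 15 chaperones and co-regulators of these receptors 0 passed (median −0.03). Among 12 targets of the pregnane X receptor, which also binds progesterone, 0 passed (median −0.08). Of 15 GABA-A receptor subunits, targets of 3α-THP, 0 passed (median −0.03), and all 15 intervals lay inside 1.5-fold, as for 95.1% of all clusters. The subunit GABRE had the highest value with 0.18 (95% interval −0.19 to 0.55).

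The enzymes that make and convert progesterone included 1 gene with p under 0.05, 3 with the replicate block, and none past 1.5-fold among 27 measured (median −0.04). Over all clusters the shares were 1.82% and 3.8% with the block, and the counts of the list were not tested against them. AKR1C1 encodes 20α-hydroxysteroid dehydrogenase, which inactivates progesterone. One of its clusters gave 5.36, 5.29 and 5.41 with P4 and 5.77, 5.46 and 5.68 with V. These groups did not overlap, and the fold change was −0.28 (SE 0.0903, 95% interval −0.48 to −0.09). Its second cluster ran the other way with 0.23 (SE 0.148, 95% interval −0.09 to 0.55), so the array gives AKR1C1 no single direction, and the AKR1C genes are near-identical copies whose probes may share signal. AKR1C2, a 3α-hydroxysteroid dehydrogenase that forms 3α-THP, had the lower array with P4 in all 3 pairs, as did 12.9% of all clusters. Its mean difference was −0.25 (95% interval −0.62 to 0.13, and −0.44 to −0.06 with the block). The third with the block was HSD17B10, a mitochondrial hydroxysteroid dehydrogenase, with −0.23 (95% interval −0.43 to −0.02 with the block). AKR1C3 differed by −0.02 and the 5α-reductase SRD5A1 by −0.01 (95% interval −0.24 to 0.21).

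Among 31 growth factor and receptor kinase genes of glioma 0 passed (median −0.01). PDGFRA, a platelet-derived growth factor receptor of glioma and glial progenitors, gave 4.28, 4.18 and 4.28 with P4 and 4.47, 4.50 and 4.62 with V. All 3 P4 arrays were below the V arrays and the fold change was −0.28 (SE 0.0797, 95% interval −0.45 to −0.11), at the 17.7 percentile of signal. EGFR differed by −0.04, VEGFA by 0.02 and MET by −0.04. PIBF1, named for its induction by progesterone in lymphocytes, gave 7.02, 7.09 and 7.64 with P4 and 6.89, 7.18 and 6.96 with V, a difference of 0.24 (95% interval −0.11 to 0.59) that lay mostly in the third pair.

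The study selected 10 genes for RT-qPCR, all of them on these arrays, so their direction here is not independent of these data. The median over the 10 was 0.27, and 0 passed the threshold, against 0.0236% of all clusters. The ranges that follow cover the 8 genes described here and not the whole list. These 8 had a higher mean with P4, by 0.14 to 0.34. The pairs did not give the same picture. In pair 3 all 8 had higher values with P4, by 0.58 to 1.00, in pair 1 the differences ran from 0.02 to 0.34, and in pair 2 all 8 had lower values with P4, from −0.32 to −0.10. Without P4 replicate 3 the median over the 10 was 0.09, and without all arrays of number 3 it was −0.03.

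RIF1, a factor of replication timing and double-strand break repair, gave 7.45, 7.49 and 8.04 with P4 and 7.11, 7.81 and 7.04 with V. The second pair ran opposite to the others, most of the mean difference came from the third pair (1.00), and the mean was 0.34 (SE 0.236, 95% interval −0.17 to 0.85). RAD50, a subunit of the MRN break repair complex, differed by 0.28, the nuclear pore protein gene TPR and the nucleolar gene ESF1 by 0.31 each, and the polymerase gene REV3L by 0.26. DYNC2H1 differed by 0.19 (0.07 in its second cluster), CCDC91 by 0.18 and the centriolar satellite gene PCM1 by 0.14. By RT-qPCR, a different measure on separately plated cells, the study reported that P4 alone raised PCM1 and TPR. Adding F removed that increase. Against the same V arrays the 8 genes differed by 0.60 to 1.26 with 3α-THP and by 0.50 to 0.91 with F. The study chose the genes partly by their fold change and p on these arrays, and all 10 had passed its threshold with 3α-THP. The values with 3α-THP and F are thus not independent of that choice. The median signal over the 10 was 7.55, 7.69 and 8.09 on the P4 arrays and 7.33, 7.92 and 7.27 on the V arrays. The second V array thus stood above the first and second P4 arrays.

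**Figure D4:**
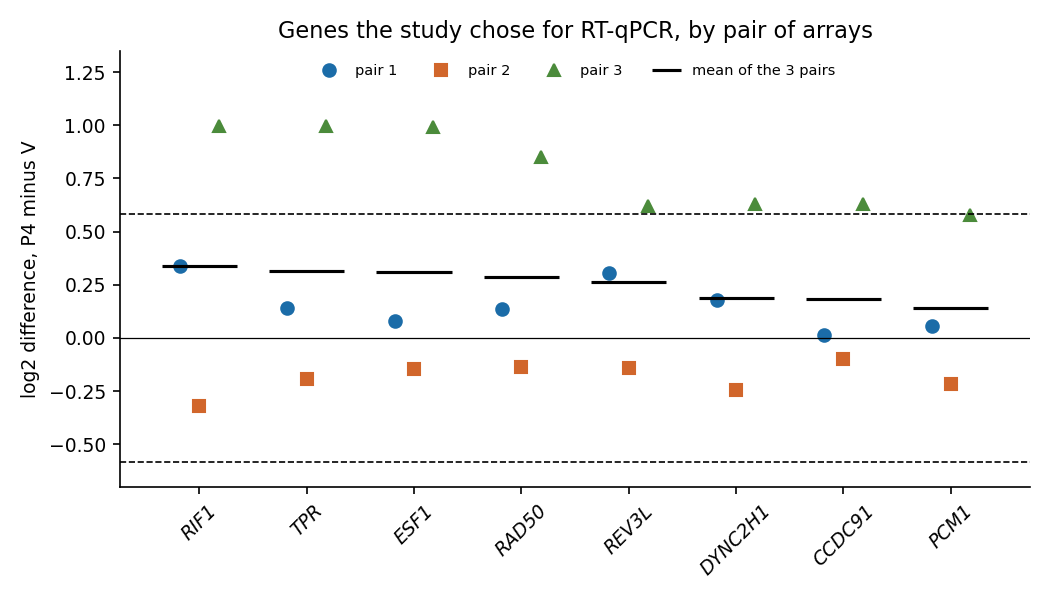
Log2 difference (P4 minus V) of 8 of the 10 genes the study chose for RT-qPCR, for each pair of arrays with the same number and as the mean of the 3 pairs (black bars). Dashed lines mark 1.5-fold. All values of pair 3 lie at or above 0.58 and all values of pair 2 lie below 0.

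Cell cycle genes differed in opposite directions in the pairs. Of 47 G2 and M phase genes, 0 passed the threshold, with a median of −0.01. Their median signal was 6.65, 7.36 and 6.94 on the P4 arrays and 6.53, 7.56 and 6.73 on the V arrays, highest on the number 2 array of both groups. By pair, the median difference was 0.15, −0.25 and 0.05, and 35, 1 and 29 of the 47 were higher with P4 in pairs 1, 2 and 3. The unpaired interval lay inside 1.5-fold for only 3 of the 47, and with the replicate block for 39. CENPF, a kinetochore protein gene, showed the spread with pair differences of 0.15, −0.68 and 0.88. The chromosome condensation gene SMC4 had the highest value of the list with 0.44 (95% interval −0.23 to 1.11, and 0.05 to 0.83 with the block), while MKI67, the proliferation marker Ki-67, differed by 0.05. Leaving out V replicate 1 moved the median of the G2 and M list to −0.27 and leaving out V replicate 2 moved it to 0.34. Of 47 S phase genes 0 passed (median −0.03), with pair medians of 0.07, −0.15 and −0.02, and of 23 G1 cyclins, kinases and inhibitors 0 passed (median −0.01).

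The families of the genes that passed were read next, from lists chosen because those members had passed. Of 20 tubulins, TUBA3E alone passed, and the median was −0.03. The beta tubulin TUBB4A ran the other way, with 5.83, 5.99 and 5.60 on the P4 arrays and 5.55, 5.55 and 5.54 on the V arrays, a difference of 0.26 (95% interval 0.03 to 0.50). TUBB8 differed by −0.28 (95% interval −0.58 to 0.03). The abundant tubulin genes TUBA1B and TUBB differed by −0.02 and −0.04.

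The vault list holds 3 vault RNAs and 2 vault proteins, and all 5 values were negative with a median of −0.23. VTRNA1-1 alone passed. VTRNA1-3 gave 6.49, 6.56 and 6.75 with P4 and 6.85, 6.89 and 6.74 with V, a difference of −0.23 (SE 0.104), and the groups overlapped by the third arrays. VTRNA1-2 differed by −0.26 (SE 0.168), the major vault protein gene MVP by −0.11 (SE 0.0841) and PARP4 by −0.06 (SE 0.0816). The pair medians of the list were −0.03, −0.33 and −0.15. The vault RNAs are close copies, and some of their signal may be shared. Against the same V arrays VTRNA1-2 differed by −0.55 with 3α-THP and by −0.42 with F.

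Of 29 late cornified envelope and epidermal differentiation genes LCE2C alone passed, and the median was 0.02. LCE2B gave 6.44, 6.72 and 6.71 with P4 and 6.38, 6.08 and 6.58 with V, a difference of 0.28 (95% interval −0.01 to 0.56). SPRR3, a cornified envelope precursor, differed by 0.24 (95% interval 0.03 to 0.45) without overlap. The pair medians were −0.06, 0.24 and −0.03, with the highest in pair 2, whose V array held the low LCE2C value. Keratinocyte and epithelial markers gave 0 passed of 8 measured, with a median of −0.05. Of 14 enamel and secretory calcium-binding phosphoprotein genes ENAM alone passed (median 0.04). The enamel protease KLK4 gave 5.77, 5.63 and 5.70 with P4 and 5.50, 5.31 and 5.52 with V, a difference of 0.26 without overlap (95% interval 0.07 to 0.45). SPARCL1, a matricellular protein of astrocytes, differed by −0.23 (95% interval −0.41 to −0.05), also without overlap, and the enamel genes AMBN and AMELX by 0.15 and 0.04. Of 20 lipocalins, in which LCN1 enters by its brighter cluster, 0 passed (median 0.02), and ORM2, an acute-phase plasma protein gene, had the lowest value with −0.41 (95% interval −0.77 to −0.05).

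Several further lists gave 0 passed each, beside a median of −0.01 over all clusters. They were 30 cAMP and immediate early genes (median −0.04), 37 extracellular matrix genes (0.01) and 24 cholesterol genes (−0.07). They also included 32 hypoxia and glycolysis genes (−0.02), 30 stress response genes (−0.02), 32 interferon-stimulated genes (0.00) and 40 cytosolic ribosomal protein genes (−0.04). The small p-values were scattered. MVK, mevalonate kinase of the cholesterol pathway, gave 6.02, 6.24 and 6.11 with P4 and 6.34, 6.38 and 6.29 with V, a difference of −0.21 (95% interval −0.41 to −0.02). The pair medians of the ribosomal genes were 0.04, −0.08 and −0.04, so pair 1 ran opposite to pairs 2 and 3. RPL22 had the highest value of that list. It gave 5.79, 6.04 and 6.23 with P4 and 5.63, 5.56 and 5.76 with V, a difference of 0.37 (95% interval 0.09 to 0.66). BST2, an interferon-induced restriction factor, was lower in all 3 pairs, as were 12.9% of all clusters. Its difference was −0.30 (95% interval −0.68 to 0.08, and −0.58 to −0.03 with the block), against −0.69 with 3α-THP and −0.56 with F.

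**Figure D5:**
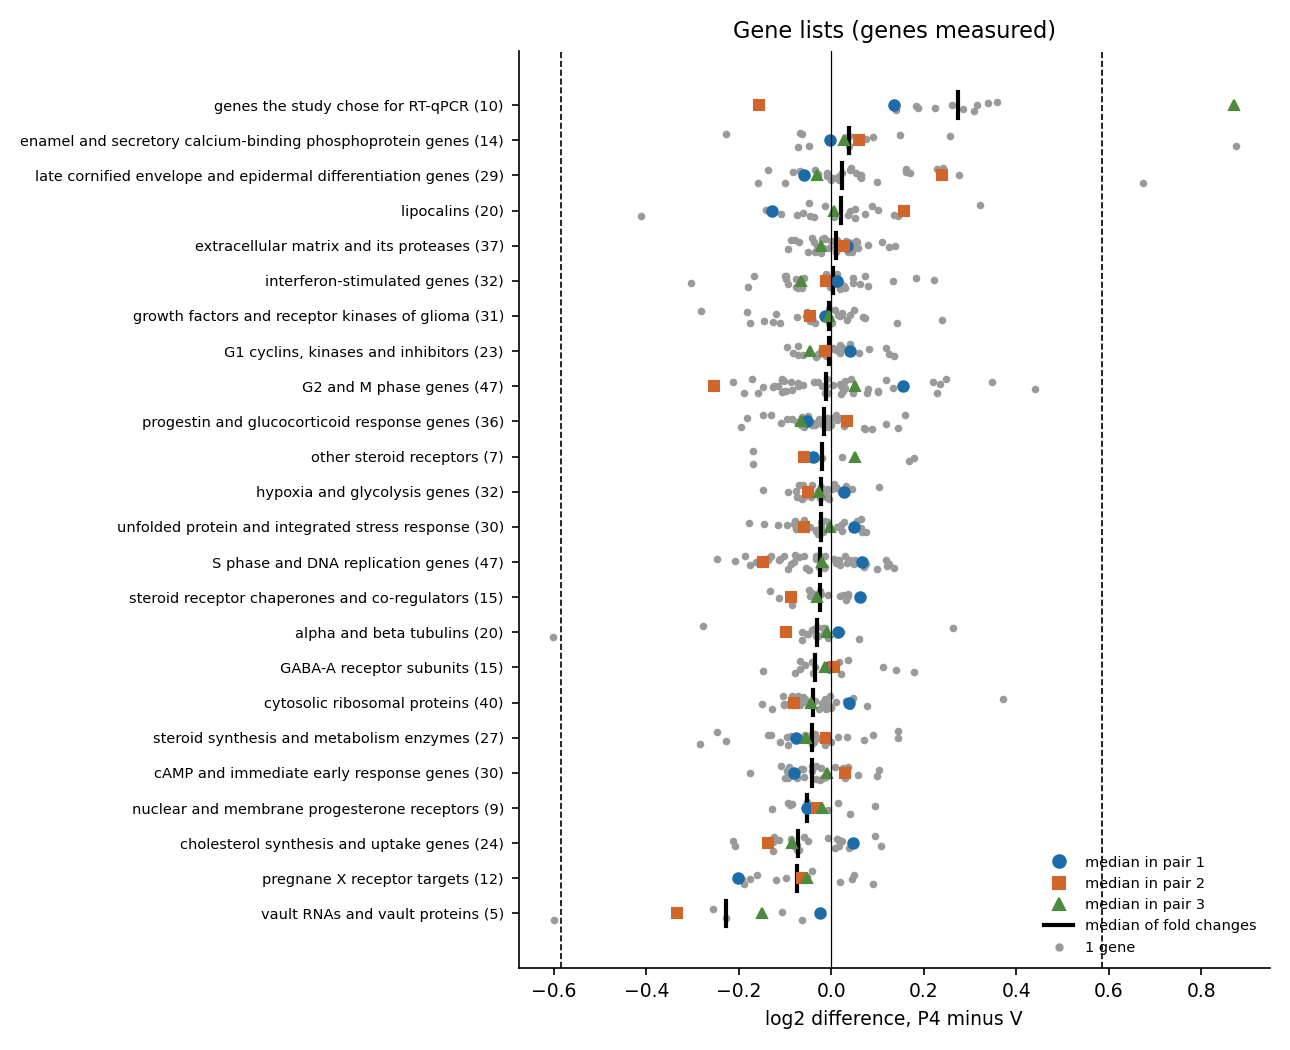
Log2 difference (P4 minus V) of each measured member of 24 gene lists (grey), with the median of the fold changes (black bar) and the median within each pair of arrays (coloured). Dashed lines mark 1.5-fold and numbers in brackets count the genes. The medians lie between −0.08 and 0.04 except for the RT-qPCR genes (0.27) and the vault list (−0.23).

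No lineage marker passed the threshold, which 0.0236% of all clusters passed. The mean signal of VIM was 12.49 with P4 and 12.50 with V, that of the astrocyte marker GFAP 6.16 with P4 and 6.15 with V, and that of AQP4 2.98 with P4 and 3.00 with V, and levels of different probe sets are not set against each other. The counts past it were 0 of 17 glioma and astroglial markers and 0 of 11 neuronal, 6 oligodendrocyte, 10 microglia and leukocyte, 6 endothelial and 8 mesenchymal markers. RBFOX3, a neuronal splicing factor, had the smallest p among them with 0.33 (95% interval 0.10 to 0.56), and its arrays overlapped. The neuronal markers had no common direction, with 5 positive and 6 negative values, a median of −0.04 and a lowest value of −0.23. Over all clusters the Euclidean distance of the P4 array to the V array of its number was 27.5, 28.6 and 28.5, against 28.3, 32.4 and 34.0 for 3α-THP and 29.1, 25.9 and 31.8 for F.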

How the data were processed

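Total RNA was hybridized to Affymetrix Human Gene 1.0 ST arrays. The authors summarized the scans with Affymetrix Expression Console 1.4 and deposited 1 log2 value per transcript cluster and array. How the deposited values were normalized is not given in the sources used here, beyond the quantile normalization and the robust multiarray analysis (RMA) that the study's methods name for its own analyses. No scan date or slide was used. Array number limits the precision. All 12 sample columns were used and 0 were left unused. Gene names came from the platform annotation, and 12083 clusters without one were not tested. Of the tested clusters 19460 carry 1 gene and 1754 carry several.

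In R 4.3.3, limma 3.58.1 fitted 1 mean per treatment over all 12 arrays, without a block, as the study's comparison was unpaired, with moderated variances. Calls need a change over 1.5-fold and an unadjusted p under 0.05, with Benjamini-Hochberg adjustment over 21214 clusters beside it. The script was tested on simulated data. Deviations from the treatment means correlated at 0.19, 0.41 and 0.17 between P4 and V arrays of the same number, and at 0.13 to 0.63 over all 18 same-number pairs. The median was 0.40 for the same number. Over 36 pairs of different number and treatment the correlations ran from −0.60 to 0.23, with a median of −0.25. Between P4 and V only number 2 stood apart, as P4 1 with V 3 and P4 3 with V 1 also reached 0.13. The labels call the numbers biological replicates, and a fit with the number as a block stands beside the unpaired one. P4 was also compared with V under other fits, normalizations, filters and thresholds, and without each array.

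The comparison and the gene lists were chosen with earlier results of these data known. Named genes were all clusters past the threshold in either fit, the 5 smallest p-values in each direction, the RT-qPCR genes, receptors and vault genes, 7 response genes, and in each list the members past it and the 3 smallest p-values. Other genes named were chosen after their values were seen. Promoter windows are from RefSeq (GRCh38.p14). For VTRNA1-1 and ADAM20P1 no window was used here. Of the RT-qPCR genes 2 are not reported here singly and 1 gene list is not reported here, for a reason unrelated to their values.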

Additional observations from a re-analysis of the deposited data

How the results depend on the processing

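The 5 clusters past the threshold became 6 with the replicate block (4 higher, 2 lower) or the number as a random term, and 7 with P4 and V arrays alone and the block. The block changed no other call than that of ADAM20P1 among the named genes. The unmoderated one-way analysis of variance gave 2 (1 higher, 1 lower), p under 0.01 gave 2 (1 and 1), and a fold over 1.3 gave 38 (20 and 18). Array weights gave 17 (15 and 2). Counting unnamed clusters, 12083 more features, gave 150 (101 and 49). Clusters above the median signal alone gave 0 (0 and 0) by limma, with 77 at an unadjusted p under 0.05. Quantile and cyclic loess normalization and the intensity trend gave 4 each, with 1 lower. Without all arrays of number 1, 2 or 3 the count was 21 (15 and 6), 40 (32 and 8) or 9 (5 and 4). Without a single array it ran from 4 to 19 (3 to 17 higher, 1 to 6 lower). Added after seeing the data, the block without P4 replicate 1, 2 or 3 gave 21 (13 and 8), 12 (6 and 6) and 10 (5 and 5), and without V replicate 1, 2 or 3 gave 16 (10 and 6), 43 (39 and 4) and 10 (6 and 4). The count past the adjusted p stayed at 0 in all settings except without V replicate 3 (1, unpaired and with the block).

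No named gene that passed changed direction in any setting. ENAM passed in 35 of 35, TUBA3E in 30 of 35, LCE2C in 26 of 35, LCN1 in 25 of 34 and VTRNA1-1 in 18 of 35. The median of the RT-qPCR genes ran from −0.03 to 0.49. With 3 arrays per group the median SE was 0.109, and 0.112 among the 5303 clusters of lowest signal and 0.104 among the 5304 of highest. The causes were not tested.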
